A study of Mus musculus with 15 samples.

Results

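Embryonic and adult globins were followed through livers of wildtype and Stab1-/- mice. The globin rows were taken from the deposited expression table by gene symbol, from a list of 9 symbols. Of these, 8 were found among the 19464 rows of the table, each on 1 row. They comprised 3 adult beta globin rows (Hbb-bs, Hbb-b1 and Hbb-b2), 2 adult alpha globin rows (Hba-a1 and Hba-a2) and 3 embryonic rows (Hbb-y, Hbb-bh1 and Hba-x). The symbol Hbb-bt was not among the rows. The 2-week-old livers comprised 4 wildtype and 4 Stab1-/- libraries, and the fetal livers of embryonic stage E17.5 comprised 4 wildtype and 3 Stab1-/- libraries. Stab1-/- mice lack Clever-1, the scavenger receptor encoded by Stab1, from all cells, and no treatment is named for either genotype. The labels give the strain background C57BL/6N;129SvJ for all 4 groups, and the sources used here do not say whether the wildtype mice were littermates. The labels name no animal or litter for each library, so p-values measure the spread between these libraries.

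Hemoglobin carries oxygen in red cells as a tetramer of alpha-like and beta-like chains, each bound to heme. Mice make the embryonic chains mainly in primitive red cells of the yolk sac and the adult chains in definitive red cells, which arise in the fetal liver before birth and later in the bone marrow. In each cluster the embryonic genes lie upstream of the adult genes, and the adult copies are nearly identical.

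Reads counted on genes, in units of 1000 reads, numbered 9659 to 10964 in a library. Globin reads made up 0.0249% to 0.0954% of these reads at 2 weeks and 1.36% to 1.82% at E17.5. Stab1, the targeted gene, was lower in Stab1-/- livers, with a log2 fold change of -3.19 at 2 weeks (adjusted p = 5.15e-06) and of -1.91 at E17.5 (adjusted p = 0.00101, edgeR for both). All 8 hepatocyte markers were above 0 in every library, and the 9 erythroid markers found in the table were above 0 in every library except that 8 of them were so throughout the Stab1-/- livers at 2 weeks. A wildtype library at E17.5, replicate 2, stood apart with 2704 summed RPKM (reads scaled by gene length and by the reads of the library) of 8 pancreas markers, against 7.79 to 259 in the other libraries. Stab1-/- replicate 1 at E17.5 held 436 summed RPKM of 9 intestine markers, against 54.4 to 184 in the other libraries. Among 2-week-old livers, wildtype replicate 4 and Stab1-/- replicate 1 had the fewest globin reads of their groups, 2657 and 4072. Log2 fold changes of the merged adult copies between ages and between genotypes are given with and without these libraries. Other values include them unless stated otherwise.

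The coding sequences of the copies are shown first, because their likeness decides which reads can be told apart. The first 90 coding bases of the 7 globin genes matched by symbol, out of 9 sought, were read from GENCODE vM21 transcripts on GRCm38. They are printed 5′ to 3′, with capitals for bases that differ from Hbb-bs among the beta-like genes or from Hba-a1 among the alpha-like genes. The beta-like genes have 3 exons each on the minus strand of chromosome 7, where the coding start of Hbb-bs lies in chr7:103827786-103827875, of Hbb-bt in chr7:103813780-103813869, of Hbb-bh1 in chr7:103843021-103843110 and of Hbb-y in chr7:103853063-103853152. The alpha-like genes have 3 exons each on the plus strand of chromosome 11, where the coding start of Hba-a1 lies in chr11:32283707-32283796, of Hba-a2 in chr11:32296524-32296613 and of Hba-x in chr11:32276664-32276753.
Hbb-bs: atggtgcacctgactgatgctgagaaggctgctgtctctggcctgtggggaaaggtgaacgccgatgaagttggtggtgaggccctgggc
Hbb-bt: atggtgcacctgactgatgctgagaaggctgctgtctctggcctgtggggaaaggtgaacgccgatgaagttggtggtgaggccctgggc
Hbb-bh1: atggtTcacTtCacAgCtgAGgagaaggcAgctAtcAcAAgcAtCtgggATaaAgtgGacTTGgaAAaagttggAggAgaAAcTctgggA
Hbb-y: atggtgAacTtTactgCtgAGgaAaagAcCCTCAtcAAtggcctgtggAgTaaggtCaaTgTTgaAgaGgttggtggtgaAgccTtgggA
Hba-a1: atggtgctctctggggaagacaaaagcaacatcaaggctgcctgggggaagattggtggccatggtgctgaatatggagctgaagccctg
Hba-a2: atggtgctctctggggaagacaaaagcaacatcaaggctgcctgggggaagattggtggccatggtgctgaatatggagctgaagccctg
Hba-x: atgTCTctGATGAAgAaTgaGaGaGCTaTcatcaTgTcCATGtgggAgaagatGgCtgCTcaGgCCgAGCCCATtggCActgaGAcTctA
Hbb-bs and Hbb-bt were the same over these 90 bases, as were Hba-a1 and Hba-a2. Hbb-bh1 differed from Hbb-bs at 29 bases, Hbb-y from Hbb-bs at 26 bases and Hba-x from Hba-a1 at 44 bases. Over the whole coding sequence, Hbb-bs and Hbb-bt differed at 1 of 441 bases and Hba-a1 and Hba-a2 at 1 of 426 bases. Hbb-y shared 74.4% and Hbb-bh1 73.9% of coding bases with Hbb-bs, and Hba-x shared 61.7% with Hba-a1.

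The table counts uniquely mapped reads, and it gives the percent of each gene model that they covered. At E17.5 the 77576 to 106231 reads of Hbb-bs covered 46.8% to 47.4% of its model, and the 29399 to 42268 reads of Hbb-b1 covered 43.8% in every library. The Hba-a1 reads covered 36.0% and the Hba-a2 reads 25.9% to 27.1%. The embryonic rows had at most 130 reads in a library, and these covered 81.4% to 96.9% of Hbb-y, 84.3% to 94.1% of Hbb-bh1 and 83.7% to 93.2% of Hba-x. The 177 to 267 reads of Hbb-b2, a minor adult row, covered 74.8% to 81.5%. Thus Hbb-bs, Hbb-b1, Hba-a1 and Hba-a2 were covered over less of their length at far higher read numbers, and Hbb-b2 lay nearer to the embryonic rows in both. In the reference transcripts, each of the 7 genes was compared with the others of its family, beta-like or alpha-like. Of the bases of Hbb-bs, 47.1% lay in at least 1 stretch of 50 bases that no other gene of its family held. This share was 44.2% for Hba-a1, 29.6% for Hba-a2 and 100% for each of the 3 embryonic genes. The stretch of 50 bases was a choice made here, since the read length is not given in the sources used here. Levels of different adult rows can therefore not be set against each other as amounts of RNA.

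Which adult copy the row named Hbb-b1 holds could not be settled. Its protein annotation in the table, like that of the Hbb-bs row, lists the protein that RefSeq assigns to Hbb-bt. Mouse strains carry either the pair Hbb-bs and Hbb-bt or the pair Hbb-b1 and Hbb-b2. Which of them these animals of mixed background carried, or whether it differed between animals, is not given. The sums of the copies are therefore given beside the single rows.

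Upstream sequences are shown for an adult and an embryonic gene of each cluster, as a description. RefSeq promoter entries on GRCm38.p6 matched 6 of the 9 symbols. The 120 bases before the RefSeq start are printed 5′ to 3′ for Hbb-bs (minus strand, chr7:103827929-103828048), Hbb-y (minus strand, chr7:103853208-103853327), Hba-a1 (plus strand, chr11:32283552-32283671) and Hba-x (plus strand, chr11:32276480-32276599). Capitals mark matches to the motifs CCAAT, which is a common promoter box, CACCC, which Klf1 family factors can bind, GATAA, which GATA factors can bind, and TATAA or its variant CATAAA. Both strands were searched, and the motifs do not overlap in these windows. In GENCODE vM21 the gene spans of all 4 begin further upstream than the RefSeq starts.
Hbb-bs: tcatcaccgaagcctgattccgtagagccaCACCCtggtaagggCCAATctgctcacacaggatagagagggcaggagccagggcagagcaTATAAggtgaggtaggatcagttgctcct
Hbb-y: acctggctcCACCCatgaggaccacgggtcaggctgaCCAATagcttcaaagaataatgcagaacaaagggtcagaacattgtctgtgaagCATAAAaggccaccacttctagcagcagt
Hba-a1: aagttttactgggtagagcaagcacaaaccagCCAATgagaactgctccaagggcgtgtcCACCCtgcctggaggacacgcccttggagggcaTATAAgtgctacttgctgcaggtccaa
Hba-x: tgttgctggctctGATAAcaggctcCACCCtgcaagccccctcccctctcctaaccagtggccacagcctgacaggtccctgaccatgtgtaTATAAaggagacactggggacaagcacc
CACCC was found in each of the 4 windows. CCAAT was found in those of Hbb-bs, Hbb-y and Hba-a1, TATAA in those of Hbb-bs, Hba-a1 and Hba-x, CATAAA in that of Hbb-y and GATAA in that of Hba-x. Of 32851 promoter windows of this length, 31.7% held CACCC, 21.3% CCAAT, 11.8% TATAA, 10.5% GATAA and 5.16% CATAAA. A match describes the letters and is not a binding site. The promoter entries of Hba-a1 and Hba-a2 shared an unbroken run of 297 out of 300 bases.

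The first comparison addressed how globin levels differed between fetal and 2-week-old livers. All 8 globin rows were higher at E17.5 in wildtype livers and all 8 in Stab1-/- livers (edgeR quasi-likelihood test, called at a Benjamini-Hochberg adjusted p under 0.05 over all rows tested). By the same rule, 37% of all 13369 rows tested were higher at E17.5 in wildtype livers and 36.8% of 13433 in Stab1-/- livers. The 3 embryonic rows and Hbb-b2 did not pass the filter on low counts in the 2-week libraries alone and entered through their fetal libraries, so they had to differ. The other 4 rows, Hbb-bs, Hbb-b1, Hba-a1 and Hba-a2, passed at both ages, and their median log2 fold change was 4.64 in wildtype and 4.92 in Stab1-/- livers. Over all rows tested the median was 0.01 in both genotypes. Scaling by library totals moved that median to 0.38 and 0.24, and it moved the split of higher against lower rows from 4948 and 4667 to 6826 and 3111 in wildtype livers and from 4945 and 4791 to 5939 and 3767 in Stab1-/- livers. No globin row changed its direction or its call under that scaling. The labels name no batch, so age and a batch that follows it cannot be told apart. In these bulk samples, fewer cells of a type and less RNA per cell cannot be told apart either. Each age comparison shares its libraries with the genotype comparisons.

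Hbb-bs encodes an adult beta chain and had the highest RPKM of the globin rows. In wildtype livers its level was 645, 788, 849 and 235 RPKM at 2 weeks and 14462, 14051, 13164 and 11531 RPKM at E17.5. In Stab1-/- livers it was 486, 916, 1112 and 936 RPKM at 2 weeks and 11537, 11678.5 and 15682 RPKM at E17.5. Every fetal library was above every 2-week library, and wildtype replicate 4 was the lowest of all. In wildtype livers the mean was 629 ± 276 RPKM at 2 weeks and 13302 ± 1299 RPKM at E17.5 (SD, n = 4 each), a 21.1-fold difference. The log2 fold change was 4.05 (standard error 0.33, adjusted p = 3.06e-07, edgeR). Here and below, fold differences compare mean RPKM, which is scaled by library totals. Log2 fold changes marked edgeR come from counts with the scaling of that tool, so the measures differ in size. In Stab1-/- livers the mean was 862 ± 266 RPKM (SD, n = 4) at 2 weeks and 12966 ± 2354 RPKM (SD, n = 3) at E17.5, a 15.04-fold difference. The log2 fold change was 3.68 (standard error 0.269, adjusted p = 3.62e-07, edgeR). By mean RPKM, Hbb-bs ranked number 4 of the 19464 rows in fetal livers of both genotypes. At 2 weeks it ranked number 86 in wildtype and 71 in Stab1-/- livers.

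Hbb-b1, the second adult beta row, was also higher at E17.5. Its reads numbered 721, 864, 935 and 287 in wildtype and 535, 910, 1105 and 871 in Stab1-/- livers at 2 weeks. At E17.5 they numbered 39256, 38111, 34326 and 31169 in wildtype and 29399, 29586 and 42268 in Stab1-/- livers. The ages did not overlap. The mean RPKM of Hbb-b1 was 49.2-fold higher at E17.5 in wildtype livers (log2 fold change 5.27, standard error 0.326, adjusted p = 2.52e-08, edgeR). In Stab1-/- livers it was 37.2-fold higher (log2 fold change 4.99, standard error 0.257, adjusted p = 2.45e-08, edgeR). Hbb-b2 was a minor row, with 1 to 10 reads in wildtype and 7 to 17 reads in Stab1-/- livers at 2 weeks. At E17.5 it had 204 to 247 and 177 to 267 reads. Its log2 fold change was 4.89 in wildtype livers (standard error 0.266) and 3.81 in Stab1-/- livers (standard error 0.258, edgeR), given as a description. With the 3 adult beta copies merged into 1 row, the log2 fold change was 4.30 in wildtype (95% interval 3.58 to 5.03) and 3.95 in Stab1-/- livers (3.35 to 4.55).

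Hba-a1 and Hba-a2 encode the adult alpha chain. The Hba-a1 level was 96.0, 133, 168 and 76.6 RPKM in wildtype and 54.3, 119.97, 140.5 and 132 RPKM in Stab1-/- livers at 2 weeks. At E17.5 it was 4429.5, 3484, 4131 and 4671 RPKM in wildtype and 3819.7, 4362 and 4620.1 RPKM in Stab1-/- livers. All fetal libraries were above all 2-week libraries, and the libraries with fewest globin reads were the lowest of their groups. The mean of Hba-a1 was 35.3-fold higher at E17.5 in wildtype livers (log2 fold change 4.78, standard error 0.244, adjusted p = 4.74e-09, edgeR). It was 38.2-fold higher in Stab1-/- livers (log2 fold change 5.03, standard error 0.302, adjusted p = 7.64e-08, edgeR). Hba-a2 ranged from 28.0 to 109 RPKM at 2 weeks and from 1825 to 2609.96 RPKM at E17.5, a 29.3-fold difference of means in wildtype and a 33.7-fold difference in Stab1-/- livers. The merged alpha copies had a log2 fold change of 4.68 in wildtype (95% interval 4.12 to 5.23) and 4.96 in Stab1-/- livers (4.23 to 5.68). Without wildtype replicate 4 at 2 weeks the wildtype values were 4.02 for the merged beta and 4.51 for the merged alpha copies. Without the fetal wildtype library with pancreas markers they were 4.28 and 4.77. Without Stab1-/- replicate 1 at 2 weeks the Stab1-/- values were 3.76 for the merged beta and 4.72 for the merged alpha copies. Without the fetal Stab1-/- library with intestine markers, they were 4.06 and 5.07. All 8 globin rows were called in each of these cases.

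**Figure D1:**
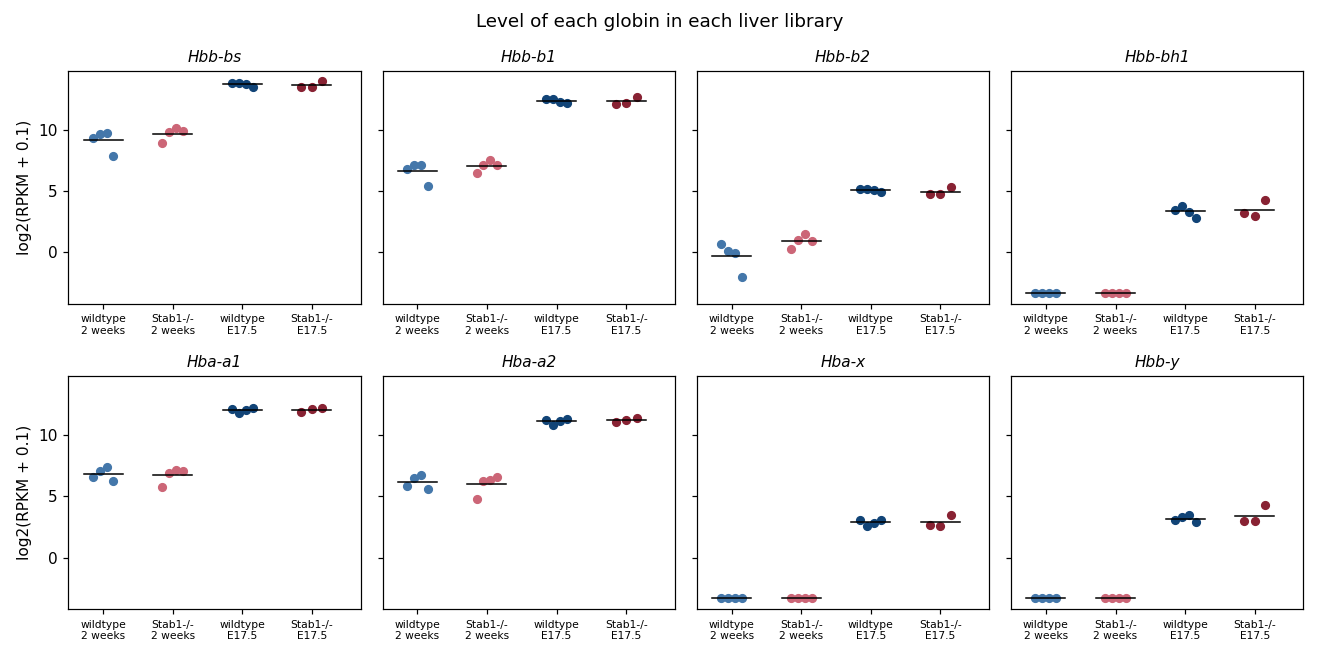
Level of each globin row in each of the 15 liver libraries, with log2(RPKM + 0.1) on the vertical axis. Each point is a library and each line a group mean, and the fetal libraries lie above the 2-week libraries in all 8 panels, with Hbb-bh1, Hba-x and Hbb-y at 0 reads in all 8 libraries at 2 weeks.

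Reads of the embryonic chains were found in the fetal livers. Hbb-y encodes the epsilon-like embryonic beta chain, Hbb-bh1 another embryonic beta-like chain and Hba-x the embryonic zeta chain. None of the 3 genes had a read in any of the 8 libraries at 2 weeks, which allows up to 3 reads in a library by counting error alone. At E17.5 Hbb-y had 56, 63, 74 and 48 reads in wildtype and 52, 50 and 130 reads in Stab1-/- livers. Hbb-bh1 had 71, 89, 65 and 45 reads in wildtype and 60, 49 and 121 reads in Stab1-/- livers. Hba-x had 55, 39, 48 and 57 reads in wildtype and 41, 38 and 72 reads in Stab1-/- livers. Stab1-/- replicate 3 held the most reads of each gene. Against the floor of 3 reads in each library, mean Hbb-y RPKM was at least 18.6-fold higher at E17.5 in wildtype and at least 23.6-fold higher in Stab1-/- livers. The bounds were 20.9-fold and 23.4-fold for Hbb-bh1. They were 15.3-fold and 15.4-fold for Hba-x.

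Embryonic chains were a small part of the fetal globin RPKM. Hbb-y and Hbb-bh1 together made up 0.0945%, 0.119%, 0.113% and 0.0871% of beta-like RPKM in fetal wildtype livers and 0.108%, 0.0948% and 0.174% in fetal Stab1-/- livers. Hba-x made up 0.119%, 0.111%, 0.110% and 0.118% of alpha-like RPKM in wildtype and 0.104%, 0.0850% and 0.149% in Stab1-/- livers. The genotypes overlapped in both shares. The shares set embryonic genes that were covered nearly throughout against adult rows of which all but the minor row Hbb-b2 were covered over at most 47.4% of their length. The ratio of Hbb-y to Hbb-bh1 RPKM was 0.912 ± 0.206 in wildtype (SD, n = 4) and 0.973 ± 0.106 in Stab1-/- livers (SD, n = 3), so these neighbouring levels did not differ beyond their spread.

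The make-up of the adult beta RPKM differed between the ages. Hbb-b1 made up 14.5%, 14.99%, 14.2% and 15.4% of adult beta RPKM in 2-week-old wildtype livers and 15.1%, 13.02%, 14.1% and 13.2% in 2-week-old Stab1-/- livers. At E17.5 it made up 28.7%, 29.3%, 27.5% and 28.7% in wildtype and 27.8%, 27.8% and 28.8% in Stab1-/- livers. The ages did not overlap in either genotype, and the genotypes overlapped at both ages. The ratio of Hbb-bs to Hbb-b1 RPKM was 5.76 ± 0.245 at 2 weeks and 2.50 ± 0.0930 at E17.5 in wildtype livers (SD, n = 4 each). It was 6.23 ± 0.483 (SD, n = 4) and 2.54 ± 0.0710 (SD, n = 3) in Stab1-/- livers. Hba-a2 made up 37.0% to 40.6% of adult alpha RPKM in wildtype and 34.0% to 42.5% in Stab1-/- livers at 2 weeks. At E17.5 it made up 34.4% to 35.1% in wildtype and 35.6% to 36.1% in Stab1-/- livers, and the genotypes did not overlap at that age. Thus the Hba-a2 shares of the ages overlapped in Stab1-/- livers and not in wildtype livers. The overlap rested on Stab1-/- replicate 1 at 2 weeks, a library with few globin reads, at 34.0%. Without it the Stab1-/- shares at 2 weeks ran from 36.8% to 42.5%, and the ages did not overlap in either genotype. These shares and ratios are given as descriptions, with no test. How often such shares separate the genotypes among other genes was not tested. At E17.5 neither Hba-a1 (adjusted p = 0.774) nor Hba-a2 (adjusted p = 0.623) was called between the genotypes (edgeR).

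Summed alpha-like RPKM was below summed beta-like RPKM in every library. The ratio was 0.202, 0.240, 0.2797 and 0.447 in 2-week-old wildtype livers and 0.143, 0.185, 0.171 and 0.212 in 2-week-old Stab1-/- livers. The highest ratio belonged to wildtype replicate 4, and the groups overlapped between the lowest wildtype and the highest Stab1-/- library. At E17.5 the ratio was 0.336, 0.267, 0.347 and 0.441 in wildtype and 0.370, 0.418 and 0.327 in Stab1-/- livers, with overlapping groups. Less of the alpha rows was covered by reads, so this is not a ratio of chains.

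**Figure D2:**
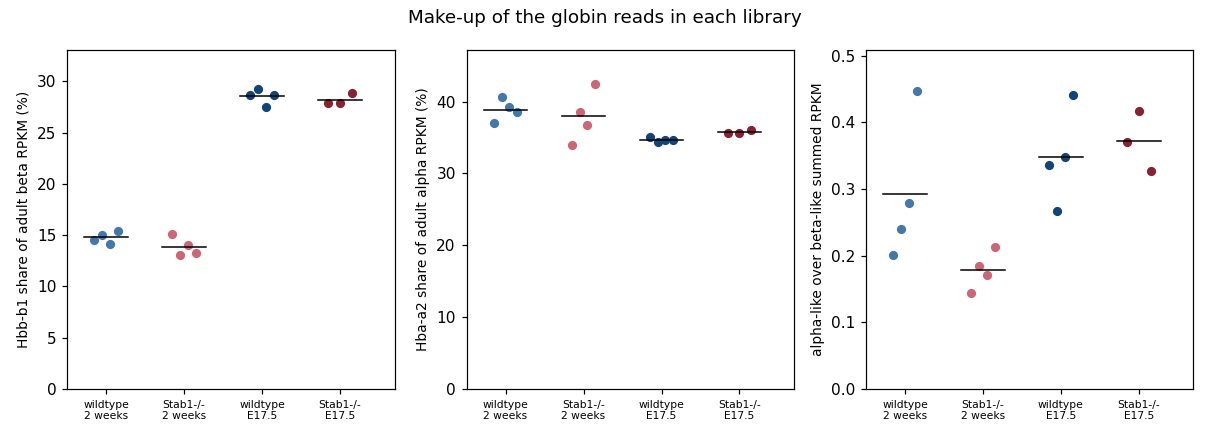
Make-up of globin RPKM in each library, with the Hbb-b1 share of adult beta RPKM in percent (left), the Hba-a2 share of adult alpha RPKM in percent (middle) and the ratio of alpha-like to beta-like summed RPKM (right). Each point is a library and each line a group mean, and the Hbb-b1 share runs from 13.02% to 15.4% at 2 weeks and from 27.5% to 29.3% at E17.5.

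Other genes of the red cell programme were set beside the globins from lists of gene names. The counts are read against the 37% of all rows in wildtype and the 36.8% in Stab1-/- livers that were higher at E17.5. Genes that did not pass the filter in the 2-week libraries alone entered through the fetal libraries and had to differ, so the counts and medians are given for the genes that passed at 2 weeks. In heme synthesis all 12 genes passed at 2 weeks and 12 were higher at E17.5 in both genotypes, with a median log2 fold change of 2.36 in wildtype and 2.38 in Stab1-/- livers. Among them were Alas2, Alad, Uros, Urod, Cpox, Ppox, Fech, Slc25a37, Slc25a38, Abcb10 and Tmem14c. Slc25a37, the mitochondrial iron importer, stood at 527 ± 79.2 RPKM at E17.5 and 7.75 ± 0.720 RPKM at 2 weeks in wildtype livers (SD, n = 4 each). Cpox, a late enzyme of the pathway, stood at 347 ± 54.4 RPKM at E17.5 and 53.9 ± 9.05 RPKM at 2 weeks. Alas2, the erythroid enzyme of the first step, stood at 610.2 ± 52.9 RPKM at E17.5 and 36.6 ± 9.28 RPKM at 2 weeks.

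Of the globin regulators and the alpha chain chaperone, 12 of 18 genes passed at 2 weeks and these 12 were higher at E17.5 in both genotypes, with median log2 fold changes of 2.64 in wildtype and 2.83 in Stab1-/- livers. The other 6, Gata1, Bcl11a, Nfe2, Gfi1b, Lin28b and Igf2bp1, entered through the fetal libraries. The 12 were Klf1, Zbtb7a, Sox6, Myb, Zfpm1, Tal1, Lmo2, Ldb1, Klf3, Igf2bp3, Hbs1l and Ahsp. Ahsp, which stabilizes free alpha chains, stood at 2263 ± 304 RPKM at E17.5 and 3.61 ± 0.800 RPKM at 2 weeks in wildtype livers (SD, n = 4 each). In Stab1-/- livers Ahsp stood at 1790.4 ± 610.3 RPKM at E17.5 (SD, n = 3) and 1.94 ± 1.17 RPKM at 2 weeks (SD, n = 4). Tal1, a transcription factor of early blood and red cells, stood at 77.0 ± 7.92 RPKM at E17.5 and 0.811 ± 0.323 RPKM at 2 weeks in wildtype livers. Klf1, an activator of the adult beta gene, had 18 to 39 reads in a library at 2 weeks and 1233 to 2034 reads at E17.5. Bcl11a, a repressor of embryonic beta-like genes, had 1 to 14 reads at 2 weeks and 300 to 408 reads at E17.5. The activator and the repressor both had more reads in the fetal libraries, where Bcl11a, which entered through them, had to be higher.

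Of 13 red cell membrane genes, 5 passed at 2 weeks, Slc4a1, Sptb, Ermap and Aqp1 among them, and these 5 were higher at E17.5 in both genotypes, with median log2 fold changes of 7.62 in wildtype and 7.84 in Stab1-/- livers. The other 8, Ank1, Epb4.2, Rhag, Rhd, Add2, Kel and Tmod1 among them, entered through the fetal libraries. Slc4a1, the anion exchanger band 3, stood at 756 ± 101 RPKM at E17.5 and 1.45 ± 0.517 RPKM at 2 weeks in wildtype livers (SD, n = 4 each). Sptb, beta spectrin, stood at 68.8 ± 14.8 RPKM at E17.5 and 0.956 ± 0.213 RPKM at 2 weeks. Aqp1 differed far less than these medians. Its log2 fold change was 0.24 in wildtype (adjusted p = 0.0499) and 0.70 in Stab1-/- livers (adjusted p = 0.000269, edgeR for both). Of 12 red cell enzymes and late erythroid genes, 8 passed at 2 weeks (Car1, Car2, Bpgm, Blvrb, Prdx2, Tspan33, Epor and Tfrc) and these 8 were higher at E17.5 in both genotypes, with medians of 2.82 and 2.94. The other 4, Trim10, Trim58, Hemgn and Tspo2, entered through the fetal libraries. Tfrc, the transferrin receptor that other dividing cells also carry, stood at 295 ± 58.0 RPKM at E17.5 and 53.4 ± 19.7 RPKM at 2 weeks in wildtype livers. Car2, a carbonic anhydrase, stood at 787 ± 60.7 RPKM at E17.5 and 31.2 ± 5.10 RPKM at 2 weeks.

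Of 6 other globins in the table, 3 could be tested. Of these, Cygb, cytoglobin, passed at 2 weeks and was lower at E17.5 in both genotypes. The theta-like genes Hbq1a and Hbq1b entered through the fetal libraries. Hbq1a had 0 to 2 reads in a library at 2 weeks and 13 to 27 reads at E17.5. Hbq1b stood at 28.8 ± 0.965 RPKM in fetal wildtype livers (SD, n = 4), with 0 to 4 reads in a library at 2 weeks. Cygb stood at 1.28 ± 0.284 RPKM at E17.5 and 4.47 ± 0.185 RPKM at 2 weeks in wildtype livers (SD, n = 4 each). Its log2 fold change, E17.5 over 2 weeks, was -2.16 in wildtype and -2.003 in Stab1-/- livers. Mb, Ngb and Hbb-bh2 had at most 5 reads in a library.

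**Figure D3:**
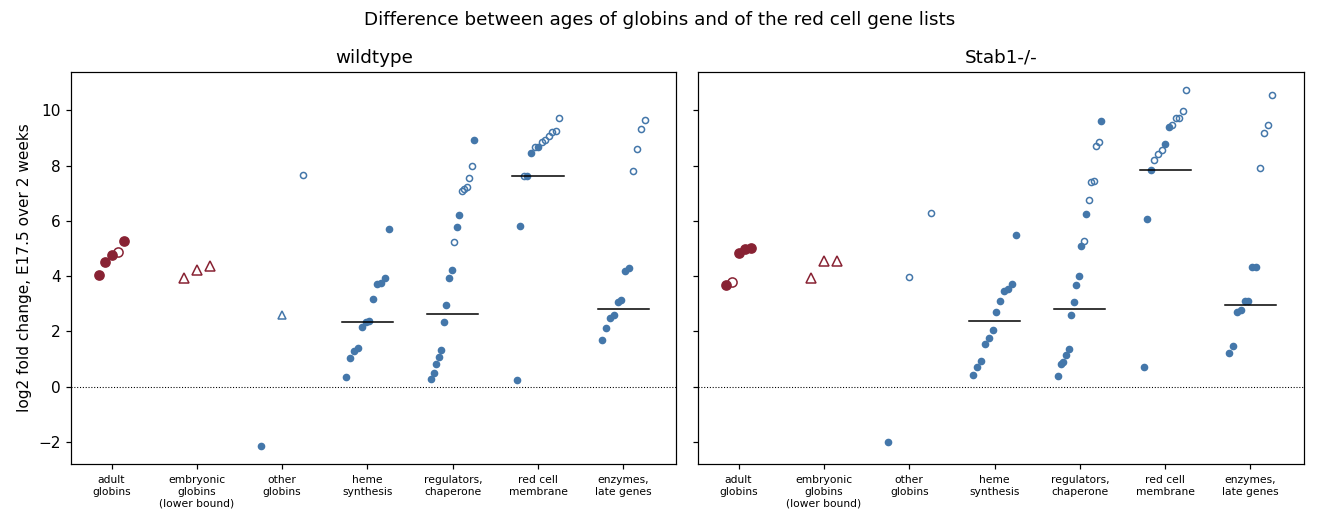
Log2 fold change between E17.5 and 2 weeks in wildtype (left) and Stab1-/- livers (right), with 1 point for each gene, open triangles for lower bounds of genes without a read at 2 weeks in that genotype, open circles for other genes that did not pass the filter in the 2-week libraries alone, and lines for the list medians of the genes that did (filled circles). The adult globins lie between 3.68 and 5.27, the medians of heme synthesis at 2.36 and 2.38 and those of the membrane genes at 7.62 and 7.84, and Cygb is the gene below 0.

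Adult globin RPKM was also set against the RPKM of erythroid markers, as a description with no test. The summed RPKM of 9 erythroid markers, which are also members of the lists above and none of them a globin, was 31.9 to 56.8 at 2 weeks and 2969 to 4788 at E17.5. The difference of the means was 93.5-fold in wildtype and 83.1-fold in Stab1-/- livers, against 26.9-fold and 20.9-fold for summed adult globin RPKM. Per unit of erythroid marker RPKM, adult globin was 19.996, 20.4, 23.1 and 12.4 in wildtype and 20.6, 29.6, 26.7 and 27.2 in Stab1-/- livers at 2 weeks. At E17.5 it was 6.13, 5.38, 6.21 and 5.05 in wildtype and 7.40, 6.75 and 6.12 in Stab1-/- livers. The ages did not overlap, and the genotypes overlapped at both ages. The markers that weighed most in the sum differed between the ages. In wildtype livers the mean sum was 4421 RPKM at E17.5 and 47.3 RPKM at 2 weeks. Of this, Ahsp made up 2263 and 3.61 RPKM, and Alas2 made up 610 and 36.6 RPKM. The ratio therefore depends on the markers chosen and is not a globin level per red cell.

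The second comparison addressed whether globin levels differed between Stab1-/- and wildtype livers of the same age. At 2 weeks, 4 of the 8 globin rows passed the filter on low counts and 0 of them were called, while 2.67% of all 12716 rows tested were called (edgeR). None of the 4 had an unadjusted p under 0.05 (0 of 4), and DESeq2 and limma called 0 as well. The adult beta sum was 756, 928, 991 and 278 RPKM in wildtype and 574, 1055, 1297 and 1080.4 RPKM in Stab1-/- livers. The groups overlapped, with 3 Stab1-/- libraries above all wildtype libraries and replicate 1 below 3 of them. The merged beta copies had a log2 fold change of 0.36 (95% interval -0.36 to 1.09, adjusted p = 0.54, edgeR), which spans 0.779 to 2.12 times the wildtype level. Without single libraries it ran from 0.097, without wildtype replicate 4, to 0.57, without Stab1-/- replicate 1, with 0.56 without wildtype replicate 3 and 0.23 without Stab1-/- replicate 3. The adult alpha sum was 153, 223, 277 and 125 RPKM in wildtype and 82.3, 195, 222 and 229 RPKM in Stab1-/- livers. These groups overlapped as well, with the lowest library in Stab1-/- and the highest in wildtype livers. The merged alpha copies had a log2 fold change of -0.17 (95% interval -0.85 to 0.51, adjusted p = 0.771, edgeR). Without single libraries it ran from -0.33, without Stab1-/- replicate 4 or wildtype replicate 4, to 0.082, without Stab1-/- replicate 1, and it was 0.069 without wildtype replicate 3. Single rows lay between -0.18 for Hba-a2 and 0.38 for Hbb-bs, with adjusted p-values of 0.527 to 0.781. Without both libraries with fewest globin reads, the log2 fold change was 0.32 for Hbb-bs, 0.19 for Hbb-b1, -0.08 for Hba-a1 and -0.07 for Hba-a2, and no row was called. Granulocyte markers moved with genotype at this age, with a summed RPKM of 8 markers of 30.6 to 146 in wildtype and 188 to 421 in Stab1-/- livers, and their part in the globin values was not tested.

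Hbb-b2 had too few reads at 2 weeks to be tested in that fit. It had 10, 6, 6 and 1 reads in wildtype and 7, 13, 17 and 11 reads in Stab1-/- livers. The groups overlapped only in that Stab1-/- replicate 1 lay below wildtype replicate 1. A fit to all 15 libraries gave Hbb-b2 a log2 fold change of 1.04 (95% interval 0.16 to 1.92, unadjusted p = 0.0233, adjusted p = 0.135, edgeR). The row passed the filter in that fit through its fetal libraries and was not called. Of the 13885 rows tested there, 3502 had an unadjusted p under 0.05 for the same comparison (edgeR). The value includes wildtype replicate 4, which had 1 read.

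At E17.5 all 8 globin rows were tested and 0 were called, while 0.366% of all 13388 rows tested were called (edgeR). None had an unadjusted p under 0.05 (0 of 8), and DESeq2 and limma called 0 as well. The adult beta sum was 20324, 19912, 18198 and 16215 RPKM in wildtype and 16026, 16223 and 22091.5 RPKM in Stab1-/- livers. The Stab1-/- group held both the lowest and the highest library. The merged beta copies had a log2 fold change of 0.02 (95% interval -0.31 to 0.34, adjusted p = 0.975, edgeR) and the merged alpha copies of 0.12 (95% interval -0.17 to 0.40, adjusted p = 0.719, edgeR). These intervals span 0.806 to 1.27 times and 0.888 to 1.32 times the wildtype level. The beta value was -0.15 without Stab1-/- replicate 3. Without the wildtype library with pancreas markers, the values were 0.04 for the merged beta and 0.03 for the merged alpha copies, and no row was called. Without the Stab1-/- library with intestine markers, they were 0.11 and 0.21, and no row was called.

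The embryonic rows were less precise at E17.5. The log2 fold change was 0.44 for Hbb-y (95% interval -0.28 to 1.16, adjusted p = 0.587), 0.26 for Hbb-bh1 (-0.45 to 0.97, adjusted p = 0.749) and 0.10 for Hba-x (-0.45 to 0.65, adjusted p = 0.887, edgeR). Without Stab1-/- replicate 3 they were -0.14, -0.22 and -0.23. That library also had the highest summed erythroid marker RPKM of the Stab1-/- livers, 4788 against 2969 and 3408, while the wildtype livers lay between 3946 and 4689.6. The part of the erythroid markers in the globin values was not tested. Granulocyte markers summed to 5123 to 8305 RPKM in wildtype and 3603 to 3924 RPKM in Stab1-/- livers, and their part was not tested either.

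**Figure D4:**
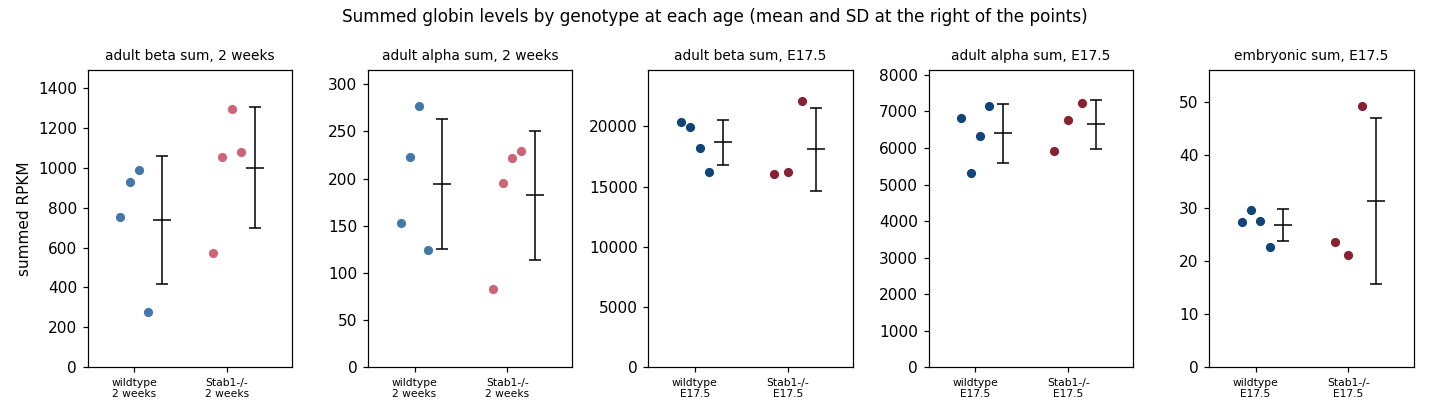
Summed RPKM of the adult beta, adult alpha and embryonic globin rows in wildtype and Stab1-/- livers at each age, each panel with its own axis from 0. Points are libraries with the mean and SD at their right, the genotypes overlap in all 5 panels, and a Stab1-/- library stands at 49.3 summed embryonic RPKM against 21.2 to 29.6 in the other fetal libraries.

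**Figure D5:**
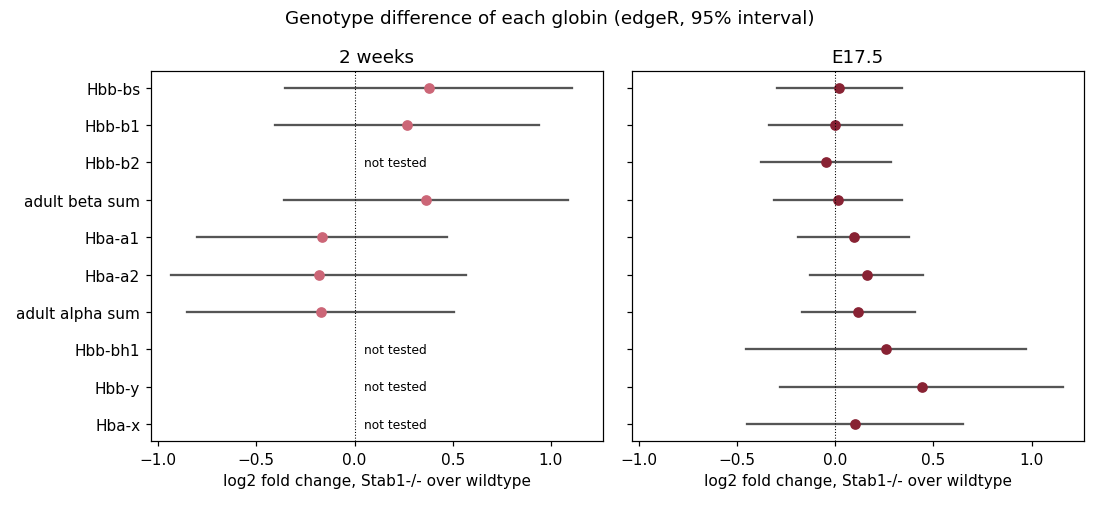
Log2 fold change of each globin row and of the merged adult copies, Stab1-/- over wildtype, at 2 weeks (left) and E17.5 (right), with the 95% interval from edgeR as a line. Every interval drawn includes 0, and 4 rows were not tested at 2 weeks.

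The difference of the genotype effect between the ages was tested in a fit to all 15 libraries. Of the 8 globin rows 0 were called, while 1.81% of all 13885 rows tested were called (edgeR), and DESeq2 and limma called 0 globin rows as well. Hbb-b2 was the 1 row of 8 with an unadjusted p under 0.05, against 23.2% of all rows tested in this fit. Its log2 difference was -1.10 (95% interval -2.09 to -0.12, unadjusted p = 0.0305, adjusted p = 0.171, edgeR), its genotype value being higher at 2 weeks. This row had 1 to 17 reads in a library at 2 weeks and entered through its fetal libraries. The log2 difference was -0.38 for the merged beta (95% interval -1.31 to 0.56, adjusted p = 0.644) and 0.26 for the merged alpha copies (95% interval -0.61 to 1.12, adjusted p = 0.749, edgeR). Without wildtype replicate 4 at 2 weeks these differences were -0.76 for Hbb-b2, -0.11 for the merged beta and 0.42 for the merged alpha copies. Without Stab1-/- replicate 1 at 2 weeks the merged alpha difference was 0.054, and over all single libraries left out the differences ran from -0.57 to -0.11 for the merged beta and from 0.021 to 0.42 for the merged alpha copies. The 3 embryonic rows had no read at 2 weeks, so no genotype value at that age could be set beside the fetal one. None of the genes of the 5 red cell and globin lists was called between the genotypes, 0 of 38 tested at 2 weeks and 0 of 58 at E17.5 (edgeR), with 8 (21.1%) and 5 (8.62%) of them at an unadjusted p under 0.05. Over all rows tested, 23.4% at 2 weeks and 12.9% at E17.5 had an unadjusted p under 0.05.

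The rows most like the globins over the 15 libraries were found by the mean absolute difference between centred log2(RPKM + 0.1) profiles, among 12035 rows with a mean of at least 1 RPKM. For the summed adult globins they were Lyl1 (mean log2 difference 0.203), 1810033B17Rik (0.259), Ampd3 (0.267), Igdcc4 (0.297) and Slc2a4 (0.302). Lyl1, a transcription factor of blood cells, had a mean of 31.5 RPKM in wildtype and 25.8 RPKM in Stab1-/- livers at E17.5, against 0.939 and 1.06 RPKM at 2 weeks. For Hbb-y they were Psat1 (0.219), Abcg4 (0.239), F830002L21Rik (0.253), Fhdc1 (0.276) and Igsf1 (0.330). Hbb-y had no read at 2 weeks, so the 0.1 added to RPKM set its profile at that age. The list for Hbb-y therefore depends on that choice and does not describe the size of its difference between ages. Psat1, an enzyme of serine synthesis, had a mean of 292 RPKM in wildtype and 242 RPKM in Stab1-/- livers at E17.5, against 2.95 and 3.15 RPKM at 2 weeks. The profiles share the same libraries and the 2 ages, and likeness was not tested.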

How the data were processed

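RNA of 15 mouse livers in 4 groups was sequenced by the authors, with 1 library for each sample. The deposited table gives, for each gene and library, the count of uniquely mapped reads, the RPKM value and the percent of the gene model covered. The authors made the RPKM from these counts, the gene length and the total reads on genes. Aligner, genome build, annotation, strand and read length are not given in the sources used here. All per-sample columns were used (0 left out), and 4 rows without a symbol carried no globin.

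Counts were tested with edgeR 4.0.16 (TMM, filterByExpr at 10 counts and a total of 15, quasi-likelihood F test, two-sided) in R 4.3.3, with the groups of each comparison alone or all 15 libraries for the difference between ages. Alternatives were other scalings, globin rows left out of the scaling, DESeq2 1.42.0, limma 3.58.1 on log2(RPKM + 0.1) or + 1, no filter, all libraries, a replicate block, merged adult copies and each library left out. A fit without both libraries with fewest globin reads was chosen after seeing the data. On simulated counts with 200 changed genes the edgeR step recovered 200 at 2 weeks among 12746 genes, with 15 false calls. At E17.5 it recovered 200 among 13589 genes, with 11 false calls, and for the difference between ages 199 among 13800. Recovery at the genotype fold changes and the spread of the globin rows was not tested.

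The globin symbols and gene lists were chosen with earlier results of these data known. Named genes were the globins, Stab1, list genes that passed the test, the pair with most reads of each list, and the 5 rows most like the adult sum and Hbb-y. Where a group had no read, a floor of 3 reads in each library gave a lower bound. Some list genes are counted and not reported by name here. Intervals are 95% intervals from edgeR. Depth limits the embryonic rows, which had 38 to 130 reads in a fetal library. Sequences came from GENCODE vM21 and RefSeq and were matched by symbol.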

Additional observations from a re-analysis of the deposited data

How the results depend on the processing

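All 8 globin rows stayed called higher at E17.5 in both genotypes, and no globin row was called between genotypes, under every alternative run. With the adult copies merged there were 5 globin rows, and 5 were called in each age comparison. Of the log2 fold changes under alternatives, 684 kept direction and call and 30 turned direction, all of them values that were not called. When each library was left out in turn, the 2-week genotype values ran from -0.32 to 0.074 for Hba-a1, from -0.41 to 0.094 for Hba-a2 and from -0.33 to 0.082 for the merged alpha copies. At E17.5 they ran from -0.14 to 0.67 for Hbb-y, from -0.22 to 0.48 for Hbb-bh1, from -0.18 to 0.10 for Hbb-b1, from -0.25 to 0.073 for Hbb-b2, from -0.13 to 0.11 for Hbb-bs, from -0.23 to 0.24 for Hba-x and from -0.15 to 0.11 for the merged beta copies. The Hba-a1 difference between ages ran from -0.0064 to 0.38. Other turned values at E17.5 were, for Hbb-b1, -0.058 by library totals, -0.0715 by limma with either pseudocount, -0.0002 without the filter, -0.0139 with all libraries and -0.0875 with the replicate block. For Hbb-bs they were -0.0369 by library totals, -0.0465 by limma and -0.0663 with the replicate block, and for Hba-x -0.003 by limma with 0.1 added. The cause was not tested. From reads in place of RPKM, the Hba-x share in fetal wildtype livers was 0.125%. The labels do not say whether replicate numbers pair the samples. Deviations from the group means correlated between -0.152 and 0.257 for same-numbered libraries. For differently numbered libraries they correlated between -0.277 and 0.322, so these values do not settle it. With the replicate block 0 globin rows were called at either age between genotypes and 8 in each age comparison, and over all rows the calls moved from 340 to 1181 at 2 weeks and from 49 to 23 at E17.5. DESeq2 called 887 rows at 2 weeks and 219 at E17.5, limma 219 and 65 with 0.1 added, and edgeR with all 15 libraries 703 at 2 weeks and 69 at E17.5. Leaving out single libraries gave 116 to 648 calls at 2 weeks and 27 to 46 at E17.5, and leaving out both libraries with fewest globin reads gave 113. For the difference between ages the 251 calls became 1066 by DESeq2, 440 by limma with 1 added, 1088 with the replicate block and 30 to 684 without single libraries. Scaling by library totals moved higher against lower calls from 119 and 221 to 137 and 118 at 2 weeks, from 26 and 23 to 22 and 32 at E17.5 and from 140 and 111 to 83 and 209 for the difference between ages.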
